A study of Mus musculus with 4 samples.

Results

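The comparison described here is that of colonies grown from long-term haematopoietic stem cells (LT-HSC) with colonies grown from short-term haematopoietic stem cells (ST-HSC), both after mock transduction. It rests on the 2 arrays of mouse RNA labelled for these groups, of 4 arrays in all, and on the log2 difference, LT-HSC minus ST-HSC, of 19938 genes with a symbol of their own. The other arrays hold colonies of the same populations that received CreER, the recombinase Cre joined to a hormone-binding piece of the oestrogen receptor. The series title concerns MLL-ENL, a leukaemia fusion whose expression is conditional, and the design text names the 2 populations within each transduction as a comparison of a first screen. All 4 groups are of C57BL/6 background and grew in methylcellulose with serum, IL-6, GM-CSF, IL-3 and stem cell factor (SCF). Neither the allele behind the conditional expression, nor the activation of CreER, nor the number of animals or colonies behind an array is given in the sources used here. Each group held 1 array, so the mock difference of a gene has no replicate check and no p-value.

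LT-HSC and ST-HSC are both multipotent, and are told apart by the time over which they rebuild blood in a transplanted host. In semi-solid medium a stem cell divides and matures into a colony, and the cytokines used here favour granulocytes, macrophages, mast cells and basophils, with some megakaryocytes. RNA of a colony therefore reports the progeny of the starting cell more than the stem cell itself. In such bulk RNA, fewer cells of a type and less RNA per cell cannot be told apart. The markers followed that pattern on the mock arrays: the neutrophil granule genes Mpo, Elane, Ltf and Ngp stood between 13.07 and 13.92 on the log2 scale, whereas Mecom and Slamf1, which define stem cells, stood under the signal floor on all 4 arrays. The floor was the median of an array's probe sets that carry 1 symbol, 8.08 for ST-HSC mock and 8.10 for LT-HSC mock. Hlf, another stem cell gene, was at 8.13 and 8.06, and Procr at 9.23 and 8.88, on the ST-HSC and LT-HSC mock arrays.

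Genes were counted where the 2 mock arrays differed at least 2-fold and the higher one was past its floor, called the size rule. LT-HSC-derived colonies had the longer list: 278 of 10208 genes past the floor were higher there (2.72%) and 41 were lower (0.402%), 3.12% in either direction. These shares of all genes are the scale for the counts of list members given below. On the lower of the mock arrays 125 of the 278 and 15 of the 41 were under the floor, so the size of their difference is uncertain. The median difference of all genes was -0.03, and the middle of the distribution was narrow, with the 5th and 95th percentiles of genes past the floor at -0.46 and 0.62. Genes of olfactory receptors, silent for the most part in blood, gave a scale of noise: the SD of their difference was 0.21 over 1027 genes, of which 1 met the size rule (Olfr920, at 1.67, named after its value was seen). For 587 genes with 2 probe sets past the floor, the difference measured by the first and by the second probe set deviated with an SD of 0.14. Some of these pairs read alike, such as that of Pgk1, with -0.3842 from both, so this SD may understate the error. Both numbers describe measurement on the same pair of arrays and not the variation between cultures.

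The CreER arrays, which share no array with the mock pair, gave the same difference in other colonies; they are not replicates, since the transduction differs. There 142 of 10189 genes were at least 2-fold higher in LT-HSC-derived colonies (1.39%) and 56 were lower (0.55%). Of the 278 genes higher with mock, 266 were also above 0 with CreER (95.68%), and of the 41 lower ones 38 were below 0 (92.68%). Among all genes past the floor, 68.03% of those above 0 with mock were above 0 with CreER, and 71.75% of those below 0 were below 0. The differences were smaller with CreER for 248 of the 278, with medians of 1.51 with mock and 0.95 with CreER; these genes were chosen for a large mock difference, which alone makes a smaller value on the other pair likely, and over all 19938 genes the CreER difference was below the mock difference for 8166. Those meeting the size rule on both pairs numbered 122 on the higher side, 43.88% of the mock list and 85.92% of the CreER list, and 12 on the lower side, 29.27% and 21.43%. Across genes past the floor the mock and CreER differences correlated with a Pearson r of 0.71 and a Spearman rho of 0.58, over 10208 genes that are not independent of each other.

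An additive fit over the 4 arrays with terms for population and transduction (limma) gave the only p-values. Its population effect is the mean of the mock and the CreER difference, and its error is large where the 2 differ, so it addresses what both pairs share. It placed 394 of 10411 genes higher in LT-HSC-derived colonies (3.78%) and 259 lower (2.49%), 6.27% in either direction, at a Benjamini-Hochberg adjusted p under 0.05. With the arrays centred on their medians the split was 325 higher and 339 lower. The fit called 197 of the 278 genes higher with mock and 28 of the 41 lower ones. The mock differences that chose these genes are also part of the effect tested, so this overlap is not independent support. Each gene leaves it 1 residual degree of freedom, and it measures only the spread between these arrays, which may be technical.

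**Figure D1:**
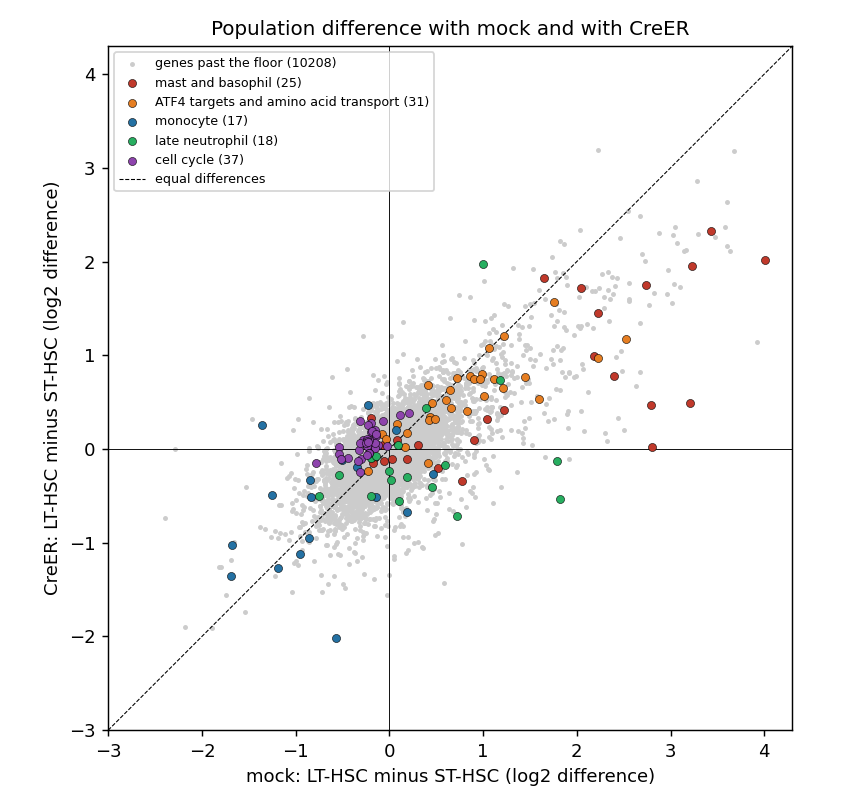
LT-HSC minus ST-HSC log2 difference with mock (horizontal axis) against the same difference with CreER (vertical axis), 1 array for each group. Grey points are the 10208 genes past the floor, coloured points all measured members of 5 lists, and the dashed line equal differences. Most mast and basophil genes lie right of 0 and below the dashed line, 24 of the 31 ATF4 and amino acid transport genes also lie below it, and the cell cycle genes lie left of 0 with CreER differences on both sides of 0.

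Mast cell and basophil genes were the lineage group with the most members past the size rule. Of 25 measured members, 13 were at least 2-fold higher in LT-HSC-derived colonies and none lower, and 17 passed the floor. The share of all genes past the floor that were higher was 2.72%. The median over all 25 members was 1.22, against -0.03 over all genes. With CreER 7 met the size rule and the median was 0.33, and limma passed 8 members, all higher. The group covers the proteases stored in granules, the IgE receptor and the enzymes of histamine and serotonin. Its summed level, on a log2 scale, was 14.67 and 16.01 on the ST-HSC and LT-HSC mock arrays and 14.96 and 15.74 on the CreER arrays.

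Among the proteases, Mcpt8, a serine protease of basophils, read 11.28 and 13.33 on the ST-HSC and LT-HSC mock arrays and 11.49 and 13.20 on the CreER arrays, given in the same order of populations. Prss34, another protease of basophils, read 10.85 and 12.50 with mock and 10.75 and 12.57 with CreER. For both genes the LT-HSC arrays lay above the ST-HSC arrays with a wide gap, and limma gave population effects of 1.88 (SE 0.12) and 1.74 (SE 0.10), each with an adjusted p of 0.00421. Carboxypeptidase A3, encoded by Cpa3 and stored with heparin in mast cell granules, was 5.25-fold higher with mock, at 11.15 and 13.54. With CreER it stood at 12.31 and 13.09, and the ST-HSC CreER array lay between the mock arrays. The limma effect of Cpa3, 1.58 (SE 0.36), did not pass, with an adjusted p of 0.0716. The tryptase gene Tpsb2 was higher by 1.05, from a level under the floor. The chymases Cma1 and Mcpt4 and the tryptase gene Tpsab1, which mark connective-tissue mast cells, were under the floor on all 4 arrays.

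The receptors of the group had some of the widest differences of the comparison. Mrgpra6, a Mas-related receptor, was 16.1-fold higher with mock, at 6.29 and 10.30, and stood at 6.95 and 8.97 with CreER. Cd200r3, an activating receptor of mast cells and basophils, was at 6.97 and 10.41 with mock and at 7.23 and 9.55 with CreER. Both were under the floor on the 2 ST-HSC arrays and past it on the 2 LT-HSC arrays, so the size of these differences is uncertain on the low side; their adjusted p in limma was 0.0267 and 0.00898. Fcer1a, the IgE-binding chain of the high-affinity IgE receptor, read 7.61 and 10.39 with mock but 8.62 and 9.09 with CreER. Ms4a2, the signalling beta chain of the same receptor, read 7.89 and 10.07 with mock and 8.60 and 9.59 with CreER. Gzmb, the gene of granzyme B, was higher by 2.80 with mock (8.77 and 11.57) and by 0.02 with CreER (10.39 and 10.41). Rab27b, a small GTPase of granule release, was higher by 2.23 with mock and 1.45 with CreER, from levels under the floor.

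Promoters of this group are shown because GATA factors bind AGATAA-type sites and the gene of GATA2 differed strongly in these colonies. The motif searched was AGATAA, or TTATCT on the other strand, in the 250 bases before the start site of RefSeq genes on GRCm38.p6. It occurs in 3090 of 27025 genes with a promoter entry (11.4%), in 6 of 19 measured mast and basophil members with an entry and in 6 of the 10 that met the size rule. In other lists it occurs in 3 of 19 megakaryocyte and platelet members with an entry (15.8%) and in 2 of the 7 that were higher. Among monocyte members with an entry it occurs in 2 of 15 (13.3%), both among the 5 that were lower. A match is a run of letters and not a binding site. The 100 bases before the start site follow for 5 of these genes, written 5′ to 3′ on the gene's strand, with the motif on either strand in capitals; the match of the other gene, Slc18a2, lies further upstream. They lie at chr16:44943578-44943677 (Cd200r3, plus strand), chr3:20242182-20242281 (Cpa3, minus), chr1:173227230-173227329 (Fcer1a, minus), chr19:11623720-11623819 (Ms4a2, minus) and chr17:25298294-25298393 (Prss34, plus).
Cd200r3: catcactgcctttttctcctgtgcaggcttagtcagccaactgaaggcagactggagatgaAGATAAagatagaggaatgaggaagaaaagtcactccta
Cpa3: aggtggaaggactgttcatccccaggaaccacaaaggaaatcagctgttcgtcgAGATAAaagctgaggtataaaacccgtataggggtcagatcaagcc
Fcer1a: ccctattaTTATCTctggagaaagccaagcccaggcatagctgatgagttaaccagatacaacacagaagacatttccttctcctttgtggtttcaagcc
Ms4a2: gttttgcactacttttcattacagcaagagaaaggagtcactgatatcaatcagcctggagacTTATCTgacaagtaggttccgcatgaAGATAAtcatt
Prss34: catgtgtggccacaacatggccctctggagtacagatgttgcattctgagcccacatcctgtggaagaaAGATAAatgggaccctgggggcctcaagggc

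Eosinophil granule genes were higher in LT-HSC-derived colonies with mock, while the eosinophil receptor genes differed little. Of the 3 receptor genes 1, Siglecf, passed the floor, and their mock differences lay between 0.11 and 0.19. Of 7 measured members 3 met the size rule, beside 2.72% of all genes past the floor, and the median over all 7 was 0.39. These 3 encode granule proteins, of which 4 of 7 listed genes were measured. The lowest mock difference among the 4 was 0.39, and 1 of the 4 was below 0 with CreER. Prg2, which encodes the major basic protein, stood at 10.70 and 12.82 with mock and at 12.12 and 12.73 with CreER. Epx, the eosinophil peroxidase gene, stood at 10.89 and 12.81 with mock and at 12.25 and 13.06 with CreER. The ST-HSC mock array was the low one for both. The third gene, Prg3, was higher by 1.97 with mock and 0.77 with CreER. The chain of the IL-5 receptor encoded by Il5ra and the eotaxin receptor gene Ccr3 were under the floor on all 4 arrays. Limma passed 1 member, Epx, with an effect of 1.36 and an adjusted p of 0.0471; 0 passed under 6 of the 8 alternatives, the 3 normalizations among them.

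Megakaryocyte and platelet genes differed on both pairs of arrays. Of 23 measured members 8 were at least 2-fold higher with mock, none was lower, 17 passed the floor, and the median over all 23 was 0.37; with CreER 6 were higher and the median was 0.41. Limma passed 8 members, all higher. Over all genes the shares higher were 2.72% by the size rule with mock and 3.78% in limma. Itga2b, which encodes the integrin CD41, read 8.16 and 10.32 with mock and 8.60 and 10.28 with CreER. The platelet factor 4 gene Pf4 read 10.06 and 11.14 with mock and 10.11 and 11.51 with CreER, and Gp9, part of the receptor for von Willebrand factor, read 8.54 and 9.74 with mock and 8.70 and 10.03 with CreER. For these 3 genes both LT-HSC arrays exceeded both ST-HSC arrays by more than 1 log2 unit. The platelet chemokine gene Ppbp was higher by 3.29 with mock (8.88 and 12.17) and by 2.29 with CreER (10.23 and 12.52). The thrombin receptor gene F2r was higher by 3.05 and 2.37, with a limma effect of 2.71 (SE 0.17; adjusted p 0.00436). F2rl2, a related receptor gene, read 9.62 and 11.95 with mock but 11.42 and 11.50 with CreER. The ATP-gated channel gene P2rx1 was higher by 1.55 with mock and the integrin gene Itgb3 by 1.47.

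Most erythroid genes lay under the signal floor. Only 3 of 17 measured members passed it, and the carbonic anhydrase genes Car1 and Car2 met the size rule, at 1.34 and 1.42. Above 0 were 14 of the 17 with mock and all 17 with CreER, beside 8816 and 11611 of all 19938 genes. Their medians were 0.31 and 0.37. Limma passed all 3 members fitted as higher, and 1 without the transduction term. Of 6 globin and haem genes listed, 1 was measured. Car2 read 8.25 and 9.66 with mock and 8.59 and 9.90 with CreER, whereas Car1 came from under the floor. Klf1, the erythroid master regulator, was at 7.52 and 8.12 with mock, and the receptor gene Epor was under the floor on all 4 arrays. The stem and progenitor list had 3 of 19 members past the size rule with mock, beside 2.72% of all genes past the floor. Past the floor were 7 of the 19, and the median over all 19 was 0.19. Cd34, a surface sialomucin of progenitors, read 7.87 and 9.69 with mock and 8.60 and 10.82 with CreER. The homeobox gene Meis1 read 7.10 and 8.37 with mock, and Adgrg1, an adhesion receptor gene of stem and progenitor cells, 9.97 and 11.74. All 3 passed in limma, with effects of 2.02, 1.40 and 1.83, and with CreER they differed by 2.22, 1.52 and 1.89.

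**Figure D2:**
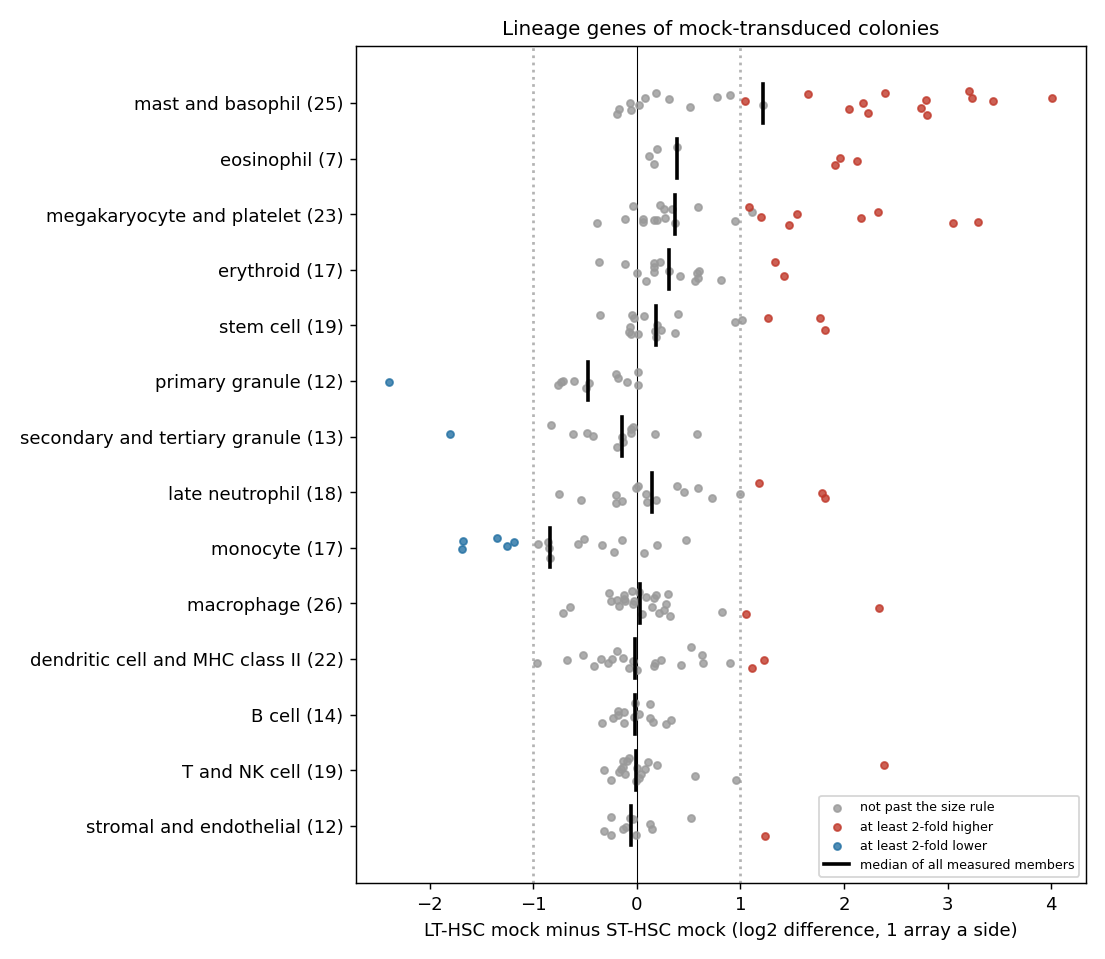
LT-HSC mock minus ST-HSC mock log2 difference (horizontal axis) of every measured member of 14 lineage lists (rows, number measured in parentheses), 1 array a side. Red points are at least 2-fold higher and blue points at least 2-fold lower with the higher array past the floor, and black bars are medians over all measured members. The mast and basophil row reaches 4.01 with a median of 1.22, and the monocyte row has 5 blue points and a median of -0.84.

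Some transcription factors of the GATA axis differed in the same direction as these lineages. Of 40 measured lineage factors 7 were at least 2-fold higher in LT-HSC-derived colonies, none was lower, and 38 passed the floor. Of all genes past the floor, 2.72% were higher and 0.402% lower. The median over all 40 factors was 0.08. Gata2, needed for mast cells, basophils and progenitors, stood at 8.92 and 11.94 with mock and at 9.41 and 11.70 with CreER. Gata1, needed for red cells, megakaryocytes, eosinophils, mast cells and basophils, stood at 7.31 and 9.07 with mock and at 7.50 and 8.82 with CreER. Their repressor partner gene Gfi1b stood at 8.72 and 9.93 with mock and at 8.83 and 9.95 with CreER. In each case both LT-HSC arrays were above both ST-HSC arrays, and limma gave effects of 2.65, 1.54 and 1.16 with adjusted p-values of 0.00554, 0.00825 and 0.0072. Other members of the same complexes differed less with mock: Tal1 by 0.28, Lyl1 by 0.27, Ldb1 by 0.05, Runx1 by 0.24 and Fli1 by -0.03. Lmo2 differed in the opposite direction, by -0.47, near the 5th percentile of genes past the floor, -0.46. Mitf, a regulator of mast cell maturation, differed by -0.08.

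The remaining factors past the size rule were Ikzf2 at 1.78, Nfil3 at 1.33, Egr2 at 1.15 and Egr1 at 1.02; the last was 0.98, under the threshold, with the arrays centred on their medians. Ikzf2, which encodes the zinc finger protein Helios, read 8.08 and 9.85 with mock and 8.23 and 9.77 with CreER. The 11 granulocyte and monocyte factors ranged from -0.85 to 1.15 and included Egr1 and Egr2: Spi1 (PU.1) differed by -0.06, Cebpa by -0.28, Cebpe by -0.10 and Gfi1 by -0.49. Irf8, which drives monocyte and dendritic cell fate, had the lowest difference of the list, -0.85, at 10.63 and 9.78 with mock and 10.28 and 9.95 with CreER. Myc, the growth regulator, was higher by 0.60 with mock and 0.57 with CreER, and passed in limma at an adjusted p of 0.031.

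None of the 17 measured cytokine receptor genes met the size rule. Past the floor were 12 of these receptor genes, and 3.12% of all genes past it met the rule, so the absence of calls says little. Of the 7 for the cytokines in the medium, Il3ra, the IL-3-binding chain, was higher by 0.76 with mock, at 9.81 and 10.56, and passed in limma with an effect of 0.71 (adjusted p 0.0212). Il6ra, the IL-6-binding chain, was lower, at 10.60 and 9.95, and passed with an effect of -0.59 (adjusted p 0.0343). Csf2rb2, a beta chain used with IL-3, differed by 0.84, the SCF receptor gene Kit by 0.40, Csf2rb by 0.30 and the GM-CSF-binding chain gene Csf2ra by 0.17, none of which passed in limma.

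Neutrophil granule genes were mostly below 0 with mock, with few members past the size rule. The primary granule list, whose products are made at the promyelocyte stage, had a median of -0.48 over 12 members with mock and of -0.01 with CreER. Of its 12 members, 10 were below 0 with mock, beside 11112 of all 19938 genes. With CreER 8312 of all genes were below 0. Only Fcnb, a ficolin gene, met the size rule; it read 12.82 and 10.43 with mock and 12.82 and 12.08 with CreER, so the LT-HSC mock array was the low one. Proteinase 3 (Prtn3) differed by -0.76, neutrophil elastase (Elane) by -0.46, myeloperoxidase (Mpo) by -0.18 and cathepsin G (Ctsg) by 0.01. Among 13 genes of secondary and tertiary granules 11 were below 0 with mock and all 13 with CreER, with medians of -0.15 and -0.41, 1 lower by the size rule with mock and 3 with CreER. There the acute-phase protein gene Orm1 was at 10.55 and 8.75 with mock and at 11.31 and 10.05 with CreER. Orm1 was the member that passed in limma, with an effect of -1.53 (adjusted p 0.0106). Lactoferrin (Ltf) differed by -0.61, the cathelicidin gene Camp by -0.82 and lipocalin 2 (Lcn2) by -0.06.

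Of 18 late neutrophil genes, which mark segmented cells, 3 were at least 2-fold higher with mock. Of all genes past the floor 2.72% were, and the median of the list was 0.14. Retnlg, a resistin-like gene, read 10.47 and 12.28 with mock but 12.03 and 11.50 with CreER. The chemokine receptor gene Cxcr2 read 10.46 and 12.25 with mock but 12.10 and 11.97 with CreER. For both, the ST-HSC mock array was the low one of the 4. Slpi, a protease inhibitor gene, differed in the same direction on both pairs, by 1.18 and 0.73, with a limma effect of 0.96 (adjusted p 0.0235). The calprotectin genes S100a8 and S100a9 differed by -0.20 and -0.15.

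Monocyte genes were the lineage group with the most members lower in LT-HSC-derived colonies. Of 17 measured members 5 were at least 2-fold lower with mock, none was higher, 14 were below 0, and the median over all 17 was -0.84. With CreER also 14 were below 0, and the median was -0.52. The floor was passed by 16 members, and 0.402% of all genes past it were lower with mock. Below 0 were 11112 of all 19938 genes with mock and 8312 with CreER. Limma passed 6 members, all lower, beside 2.49% of all genes fitted, and 1 without the transduction term. The list was chosen with earlier results of these data known. Of its 4 measured defining markers, all 4 were below 0 with mock, 1 met the size rule and limma passed 0. Tnfsf13b, the gene of the B cell survival factor BAFF, read 10.11 and 8.42 with mock and 10.58 and 9.22 with CreER. Tifab, an adaptor gene, read 11.06 and 9.39 with mock and 10.68 and 9.65 with CreER. The lectin gene Clec4a1 read 9.12 and 7.93 with mock and 8.52 and 7.26 with CreER. In all 3 genes both LT-HSC arrays were below both ST-HSC arrays, with limma effects of -1.52 (SE 0.12), -1.35 (SE 0.17) and -1.23 (SE 0.09) and adjusted p-values of 0.00606, 0.0182 and 0.00606. Ccr2, the receptor that brings monocytes out of the marrow, was at 11.78 and 10.53 with mock and at 10.89 and 10.40 with CreER, and its limma effect of -0.87 did not pass (adjusted p 0.0657). F13a1, a coagulation factor gene of monocytes, was at 12.18 and 10.82 with mock but at 10.98 and 11.24 with CreER. The M-CSF receptor gene Csf1r differed by -0.34 and Cd14 by -0.22.

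Macrophage and dendritic cell genes had members on both sides of 0 with mock. The macrophage list had a median of 0.04 over 26 members, and its defining genes Adgre1 (F4/80), Cd68, Mrc1 and Mertk differed by 0.05, -0.03, 0.30 and -0.65. With CreER all 4 were below 0, with a median of -0.73, and Mertk, a receptor for dying cells, passed in limma as lower (effect -1.05, adjusted p 0.0464). Retnla, a resistin-like gene that IL-4 induces in macrophages, was higher by 2.34 with mock, at 5.77 and 8.11, just past the floor, and by 1.70 with CreER, under the floor on both arrays. Ms4a7 was higher by 1.05 with mock and differed by -0.21 with CreER. The scavenger receptor gene Msr1 differed by -0.71 with mock and -0.85 with CreER and was lower in limma, with an effect of -0.78 (adjusted p 0.0182). The MHC class II genes H2-Aa, H2-Ab1 and H2-Eb1 differed by -0.35, -0.42 and -0.24. Among dendritic cell genes the lectin gene Mgl2 was higher by 1.23 and the integrin gene Itgax (CD11c) by 1.11 with mock; with CreER they differed by 0.91 and -0.58.

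Lymphoid and stromal markers gave little signal. Of 14 B cell genes 3 passed the floor and none met the size rule, and Cd79a, Ms4a1, Pax5 and Ebf1 were under the floor on all 4 arrays. Of 19 T and NK cell genes 2 passed it, and Cd3e, Cd3d, Cd3g and Ncr1 were under it on all 4 arrays. The exception was Lat, an adaptor gene that T cells, mast cells and platelets share, at 7.93 and 10.32 with mock. Of 12 stromal and endothelial genes 1 met the size rule, Pdgfrb at 1.23, from a level under the floor. The collagen genes Col1a1, Col1a2 and Col3a1 differed by -0.04, -0.10 and -0.06.

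Cytokine genes were a further group with most called members on the higher side. Of 24 measured, 11 were at least 2-fold higher in LT-HSC-derived colonies with mock and 1 was lower. Of all genes past the floor, 2.72% were higher and 0.402% lower. Among the 24 cytokine genes 17 passed the floor, and the median over all 24 was 0.96 with mock and 0.48 with CreER. Limma passed 10 higher and 1 lower, beside 3.78% and 2.49% of all genes fitted. Il6 stood at 8.10 and 11.78 with mock and at 7.86 and 11.04 with CreER, a 12.8-fold difference with mock. The type 2 cytokine genes Il4 and Il13, made by basophils and mast cells among others, stood at 7.28 and 10.15 and at 8.36 and 10.74 with mock, and at 6.95 and 9.25 and at 8.10 and 9.94 with CreER. For these 3 genes both LT-HSC arrays were above both ST-HSC arrays by over 1.5 log2 units, with limma effects of 3.43 (SE 0.14), 2.59 (SE 0.15) and 2.11 (SE 0.15) and adjusted p-values of 0.00367, 0.00421 and 0.00558. Lif, of the IL-6 family, was higher by 2.96, from a level under the floor, and Osm, of the same family, by 1.29. The neutrophil-attracting chemokine genes Cxcl2 and Cxcl1 were higher by 2.03 and 1.22, the latter from just under the floor. Il1a was higher by 1.12 and Csf1 by 1.25. The monocyte-attracting genes Ccl7 and Ccl2 were higher by 2.07 and 1.64 with mock but by 0.20 and 0.38 with CreER. Il18 was lower, at 8.30 and 7.28, and was just short of the size rule after quantile or loess normalization (-0.99 after loess). Il3 and Csf2, the genes of IL-3 and GM-CSF, both added to the medium, were under the floor on all 4 arrays.

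Amino acid metabolism had the metabolic list with the largest number of members past the size rule. The activating transcription factor ATF4 is translated when amino acids run short or proteins misfold, and it raises genes of amino acid uptake, synthesis and transfer RNA charging. All 31 measured members of the list of ATF4 targets and amino acid transporters passed the floor. With mock 28 were above 0, beside 8816 of all 19938 genes. At least 2-fold higher were 10 members, beside 2.72% of all genes past the floor, and none was lower. The median was 0.73 with mock and 0.57 with CreER, where 29 were above 0 and 4 met the size rule. Limma passed 17 members, all higher, 10 after loess normalization and 6 without the transduction term. The mast and basophil genes moved in the same direction on both pairs, by the summed levels given above, and their part in these differences was not tested.

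Among the regulators, Atf4 itself read 10.66 and 11.39 with mock and 10.50 and 11.25 with CreER, with a limma effect of 0.74 (SE 0.09; adjusted p 0.0182). Trib3, a pseudokinase gene that ATF4 induces, read 8.33 and 10.86 with mock and 8.61 and 9.78 with CreER. Ddit3, which encodes the stress factor CHOP, read 9.01 and 10.60 with mock and 9.20 and 9.73 with CreER, and did not pass in limma (adjusted p 0.0746). Both LT-HSC arrays were above both ST-HSC arrays for each of these genes, with a smaller gap on the CreER pair for Trib3 and Ddit3. Sesn2, a leucine sensor gene, was higher by 1.44, Atf5 by 1.21 and the stress protein gene Nupr1 2.01-fold, the last at the threshold (0.97 on the log2 scale after centring). Asparagine synthetase (Asns) was higher by 0.99 with mock and 0.81 with CreER. The transfer RNA charging enzymes of glutamate and proline (Eprs), tryptophan (Wars), serine (Sars) and glycine (Gars) were higher by 0.91, 0.82, 0.65 and 0.60, under the size rule, and of these Eprs, Sars and Gars passed in limma.

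Of 15 genes of amino acid transport and transamination 5 met the size rule and 7 passed in limma, with a median of 0.49 and 2 members below 0. Slc7a5, the light chain of the large neutral amino acid transporter, read 11.47 and 13.23 with mock and 11.40 and 12.96 with CreER, with a limma effect of 1.66 (SE 0.10; adjusted p 0.00421). Slc7a1, a cationic amino acid transporter gene, read 10.24 and 11.30 with mock and 10.01 and 11.10 with CreER. In these genes the mock and the CreER pairs gave nearly the same difference. Slc7a3, of the same cationic family, was higher by 2.23 with mock and 0.97 with CreER, from a level under the floor, and Slc7a8 by 1.12 and 0.74. Bcat1, which removes the amino group of branched-chain amino acids, was higher by 1.22 and 1.21. The glutamine transporter gene Slc1a5 was higher by 0.64 and 0.63.

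TGATGNAA, the composite letters bound by ATF4 with C/EBP partners, or TTNCATCA on the other strand, occurs in the 250 bases before the start site of 1056 of 27025 genes (3.91%). Of 24 measured members of the ATF4 and amino acid transport list with a promoter entry, 6 hold it (25%): Asns, Atf3, Gars, Got1, Nupr1 and Pck2. Among the 8 with an entry that met the size rule, 1 holds it, Nupr1. AGATAA occurs in 0 of the 24. No match says only that these letters are not in this window.

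**Figure D3:**
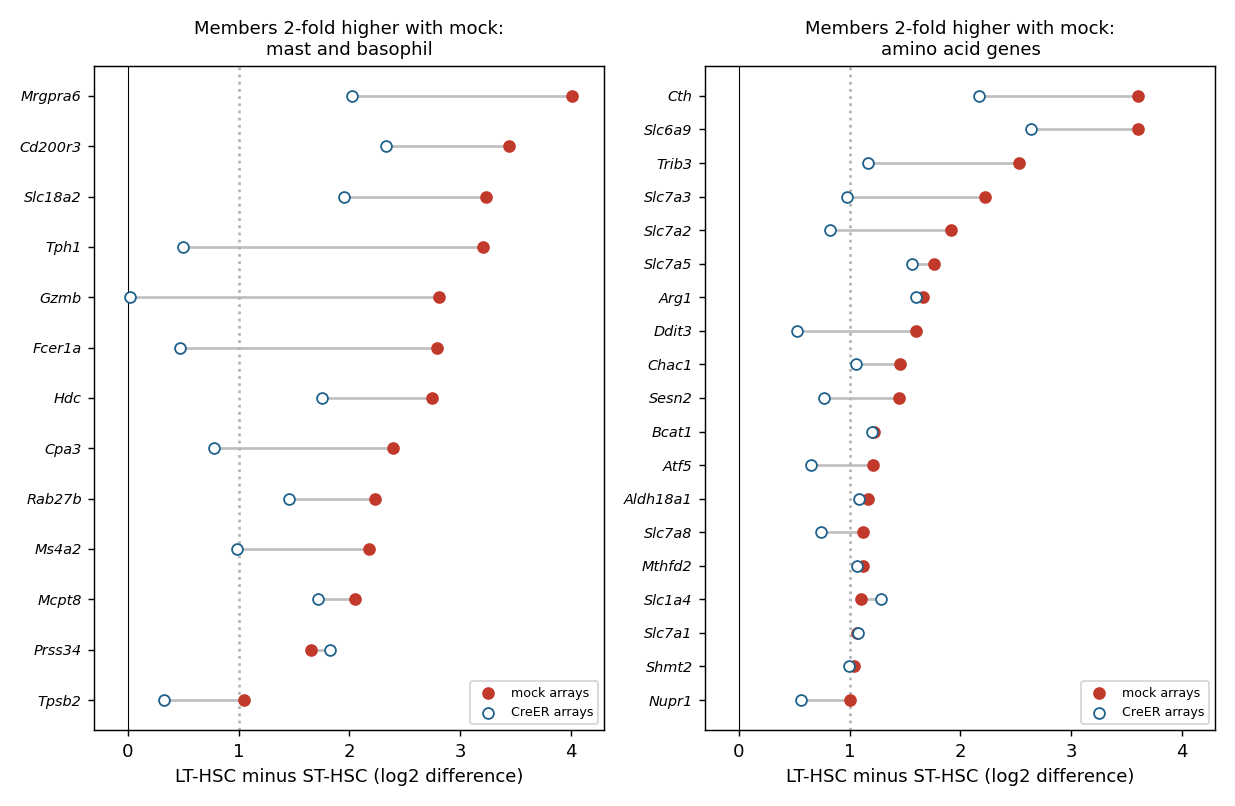
LT-HSC minus ST-HSC log2 difference (horizontal axis) with mock (filled) and with CreER (open) for the members that were at least 2-fold higher with mock, 13 mast and basophil genes (left) and 19 amino acid genes (right). The dotted line is a 2-fold difference and each point compares 1 array a side. On the left, Gzmb, Tpsb2, Fcer1a, Tph1, Cpa3 and Ms4a2 are under 1 with CreER. On the right, so are Ddit3, Nupr1, Atf5, Slc7a8, Sesn2, Slc7a2, Slc7a3 and, just, Shmt2. Members with nearly equal values on both pairs include Prss34 (left) and Slc7a5, Arg1, Bcat1, Mthfd2 and Shmt2 (right).

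Serine, glycine and one-carbon genes had 4 of 16 measured members at least 2-fold higher with mock, beside 2.72% of all genes past the floor. Past the floor were 11 members, and the median of the list was 0.16. With CreER 3 were higher and the median was 0.62, and limma passed 6. The glycine transporter gene Slc6a9 was 12.1-fold higher with mock, at 8.63 and 12.23, and stood at 8.77 and 11.41 with CreER. The mitochondrial enzymes Shmt2 and Mthfd2, which take one-carbon units from serine, read 10.59 and 11.63 and 10.39 and 11.51 with mock, and 10.48 and 11.48 and 10.27 and 11.33 with CreER. For these 3 genes the ST-HSC arrays lay close together and both LT-HSC arrays above them, with limma effects of 3.12, 1.02 and 1.09 and adjusted p-values of 0.00584, 0.00898 and 0.00761. The serine synthesis genes Phgdh and Psat1 were higher by 0.90 and 0.75 with mock and passed in limma, with effects of 0.91 and 0.79. Slc1a4, a transporter gene of neutral amino acids including serine, was higher by 1.11 from a level under the floor.

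In cysteine and glutathione metabolism 2 of 27 measured members met the size rule, Cth and Chac1. Cth, the enzyme that releases cysteine from cystathionine, was 12.1-fold higher with mock, at 7.15 and 10.75, and stood at 7.68 and 9.85 with CreER (limma effect 2.88, SE 0.33, adjusted p 0.0146). Its ST-HSC levels were under the floor on both pairs. Chac1, which degrades glutathione, was higher by 1.45 and 1.06, and Slc7a11, the cystine importer, by 0.50 and 0.38. The 8 measured genes of cysteine supply had a median of 0.12, with 4 above 0 and 4 below, and the 16 genes of glutathione synthesis and use had a median of -0.06 and no member past the size rule.

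Arginine genes went in opposite directions. Nos2, which makes nitric oxide from arginine in activated macrophages, was 4.89-fold lower in LT-HSC-derived colonies with mock, at 9.56 and 7.27, the latter under the floor so that the fold is uncertain, but stood at 8.12 on both CreER arrays. Arg1, which splits arginine into ornithine and urea, read 10.40 and 12.06 with mock and 9.48 and 11.09 with CreER. The Arg1 difference was 1.66 and 1.60 on the 2 pairs, with a limma effect of 1.63 (SE 0.09; adjusted p 0.00421), whereas that of Nos2 was seen on the mock pair only (limma adjusted p 0.234), a contrast between the pairs that was not tested. Slc7a2, an arginine transporter gene, was higher by 1.92 with mock and 0.82 with CreER. Aldh18a1, the entry step of proline synthesis, was higher by 1.17 and 1.09. Of the polyamine genes, ornithine decarboxylase (Odc1) and spermidine synthase (Srm) were higher by 0.76 and 0.55 and passed in limma, with effects of 0.72 and 0.61.

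Central carbon metabolism differed far less. Glycolysis genes had a median of -0.28 over 23 members with mock, 17 of them below 0, and of 0.09 with CreER, and none met the size rule on either pair. Phosphofructokinase (Pfkl) differed by -0.73 with mock and 0.22 with CreER, and Pdk1, the kinase that closes pyruvate dehydrogenase, by -0.82 and 0.29. Pfkfb4, a regulator of glycolysis, differed by -0.59 on both pairs and was the member that passed in limma (adjusted p 0.0307). The glucose transporter gene Slc2a3 differed by 0.76 with mock and was level with CreER, at 12.51 and 12.50. The hypoxia list, which shares Pdk1, had a median of -0.19 with mock and 0.19 with CreER. Its mitophagy gene Bnip3 read 11.95 and 10.97 with mock but 11.48 and 11.80 with CreER.

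Mitochondrial genes differed little in most members. Of 71 oxidative phosphorylation subunits, 54 were below 0 with mock and 48 with CreER, beside 11112 and 8312 of all 19938 genes. Oxidative phosphorylation had a median of -0.09 over 71 subunits, the tricarboxylic acid cycle of -0.11 over 22 and fatty acid oxidation of -0.13 over 22. The exception was Cox6a2, the heart and muscle form of a cytochrome c oxidase subunit, at 8.26 and 10.93 with mock and 8.33 and 9.15 with CreER (limma adjusted p 0.0748). Cholesterol synthesis had 19 of 20 members below 0 with mock, with a median of -0.18. With CreER 3 of 20 were below 0, with a median of 0.20. Of all 19938 genes, 11112 were below 0 with mock and 8312 with CreER. The lowest mock difference of the list was -0.49, and no member met the size rule. Fatty acid synthesis had medians of -0.16 and 0.16 on the 2 pairs. Of lipid handling genes, Fabp4, a fatty acid carrier of macrophages and fat cells, differed by -0.73 and -0.76 and was lower in limma with an effect of -0.75 (adjusted p 0.0182), and lipoprotein lipase (Lpl) by -0.51 and -0.49 (adjusted p 0.0461).

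**Figure D4:**
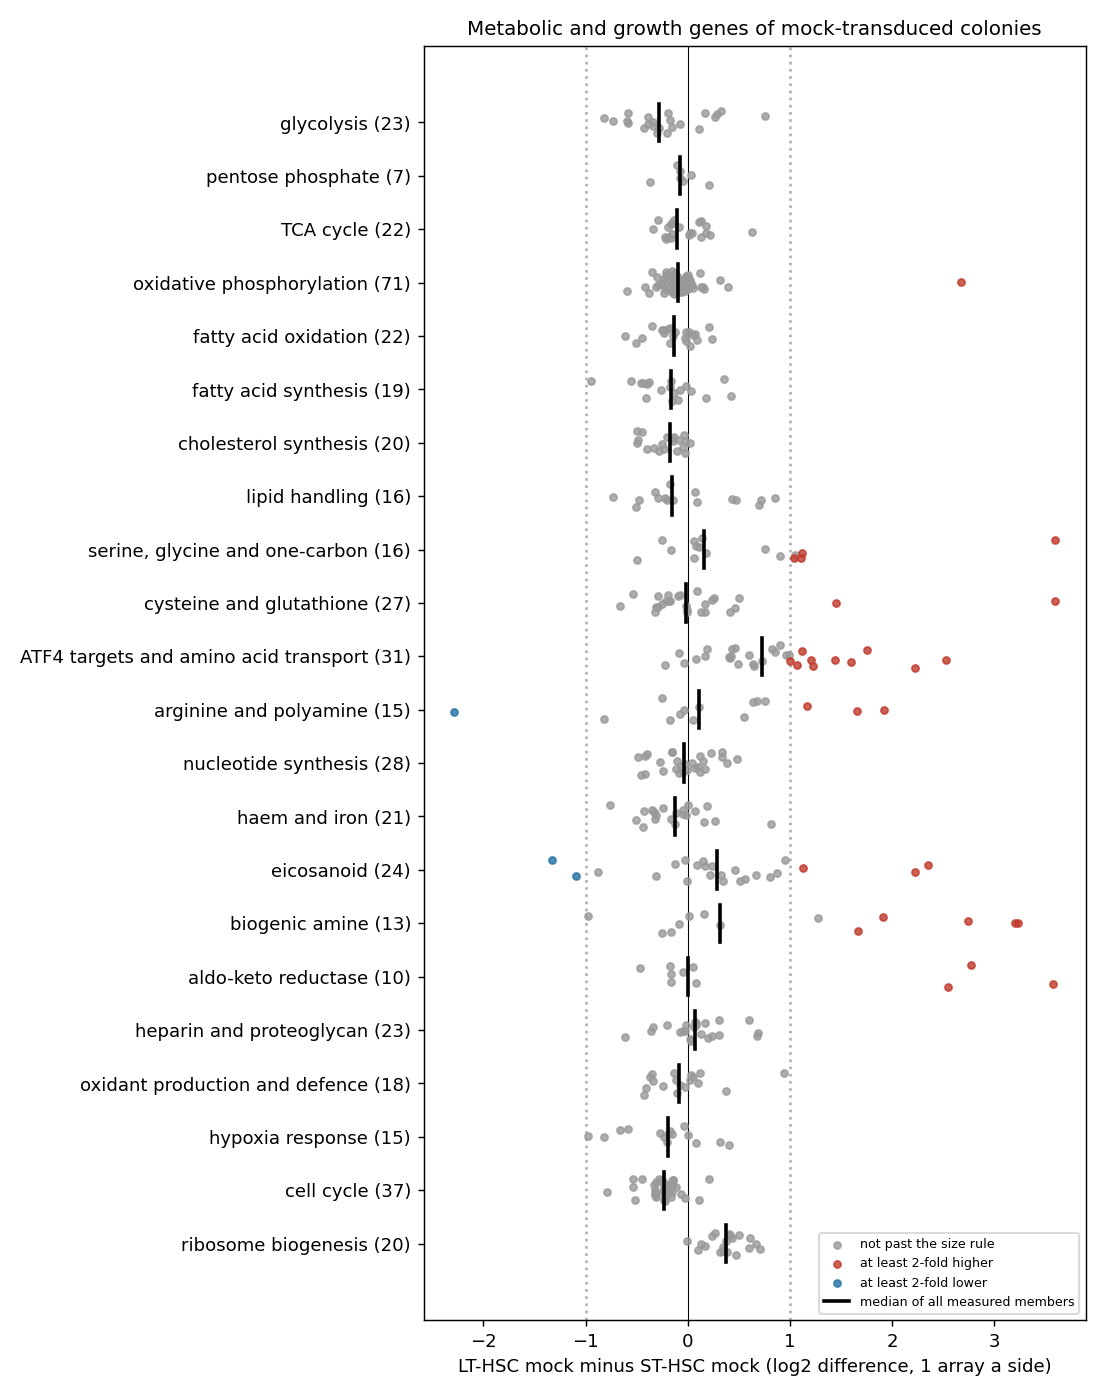
LT-HSC mock minus ST-HSC mock log2 difference (horizontal axis) of every measured member of 22 metabolic and growth lists (rows, number measured in parentheses), 1 array a side. Colours and bars are as in the plot of lineage genes. The row of ATF4 targets and amino acid transport has a median of 0.73 and 10 red points, while glycolysis and cell cycle have medians of -0.28 and -0.23 and no coloured point.

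Growth genes split in the same colonies. Cell cycle genes were below 0 with mock for 35 of 37 members, with a median of -0.23, all 18 mitotic genes among them. With CreER 11 of 37 were below 0, with a median of 0.06. The balance of all 19938 genes also shifted, from 11112 below 0 with mock to 8312 with CreER. Their medians were -0.03 and 0.04. No cell cycle gene met the size rule, and limma passed none. The widest difference was that of the checkpoint kinase gene Bub1, at 11.61 and 10.82 with mock and 11.50 and 11.35 with CreER. Above 0 were 8816 of all 19938 genes with mock and 11611 with CreER. Of ribosome biogenesis genes, 19 of 20 were above 0 with mock and 20 of 20 with CreER, with medians of 0.38 and 0.57. Limma passed 6 of them, including nucleolin (Ncl) at an effect of 0.56, the box C/D particle protein gene Nop58 at 0.72 and the pseudouridine synthase gene Dkc1 at 0.73; without the transduction term 1 passed.

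Amine and lipid mediator genes overlapped in part with the mast and basophil list. Hdc, the enzyme that makes histamine, read 10.05 and 12.80 with mock and 10.84 and 12.59 with CreER. Slc18a2, which loads histamine and serotonin into granules, read 8.02 and 11.25 with mock and 8.60 and 10.55 with CreER. Both LT-HSC arrays were above both ST-HSC arrays, and limma gave effects of 2.25 (SE 0.23) and 2.59 (SE 0.29) with adjusted p-values of 0.012 and 0.015. Tph1, the first step of serotonin synthesis, was higher by 3.20 with mock (7.13 and 10.34) and 0.50 with CreER (8.45 and 8.95). The serotonin importer gene Slc6a4 was higher by 1.67 with mock. The monoamine oxidase gene Maob was higher by 1.91 with mock, from 6.61, under the floor, and did not pass in limma (adjusted p 0.114). Hnmt, which inactivates histamine, was lower in limma, at an effect of -1.11 (adjusted p 0.0106), with levels of 9.12 and 8.15 with mock.

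Of 24 eicosanoid genes 3 were at least 2-fold higher and 2 lower with mock. Ptgs2, the inducible cyclooxygenase, read 9.38 and 11.61 with mock and 8.62 and 11.81 with CreER, a wider difference on the CreER pair. The prostaglandin E receptor gene Ptger3 was higher by 2.35 and the lipoxygenase gene Alox15 by 1.13, both from levels under the floor. Lta4h, which completes leukotriene B synthesis, was lower, at 12.76 and 11.67 with mock and 12.85 and 12.55 with CreER, and did not pass in limma (adjusted p 0.103). The cysteinyl leukotriene receptor gene Cysltr1 was lower by 2.52-fold with mock and passed with an effect of -1.09 (adjusted p 0.0191). Among 10 aldo-keto reductase genes, Akr1c18, which inactivates progesterone, read 10.93 and 13.48 with mock and 10.72 and 13.26 with CreER, with a limma effect of 2.54 (SE 0.09; adjusted p 0.00367). Its neighbours by name Akr1c12 and Akr1c13 were higher by 3.58 and 2.77, from levels under the floor. These genes are close relatives, and signal of one transcript on probes of another cannot be told apart here.

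MicroRNA genes were described because 2 of the 20 lowest differences were theirs. Of 300 measured, 54 passed the floor, 3 were at least 2-fold lower with mock and none was higher. Limma passed 4 of 55 fitted, all lower. The shares lower over all genes were 0.402% by the size rule and 2.49% in limma. The family was taken up for these same values, so its counts are a description only. The array reports the precursor or its host transcript and not the mature microRNA. Mir142, a blood-cell microRNA gene, read 10.46 and 8.28 with mock and 10.33 and 8.43 with CreER, with a limma effect of -2.04 (SE 0.11; adjusted p 0.00421). Mir181b-1 read 8.30 and 6.56 with mock and 7.88 and 6.31 with CreER, the LT-HSC arrays under the floor. Mir15a, named after its values were seen, read 9.62 and 8.40 with mock and 9.97 and 8.62 with CreER. For all 3 both LT-HSC arrays were below both ST-HSC arrays. The mature sequences are printed to identify the genes, from RefSeq on GRCm38.p6, 5′ to 3′, with the seed (bases 2 to 8) in capitals. No seed is shared among them. They lie at chr11:87756903-87756925 and chr11:87756867-87756887 (miR-142a-3p and 5p, plus strand), chr1:137966650-137966673 (miR-181b-5p, plus) and chr14:61632075-61632096 (miR-15a-5p, minus).
mmu-miR-142a-3p: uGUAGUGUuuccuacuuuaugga
mmu-miR-142a-5p: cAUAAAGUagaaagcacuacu
mmu-miR-181b-5p: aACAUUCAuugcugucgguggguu
mmu-miR-15a-5p: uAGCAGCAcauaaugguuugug

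Outside the lists, the genes furthest to the higher side included several of structural or signalling role. Rnase2a, a ribonuclease of the eosinophil family, was at 6.68 and 10.60 with mock but at 6.77 and 7.91 with CreER. Igfbp7, a secreted binding protein of growth factors, was at 9.32 and 12.60 with mock and at 9.32 and 12.18 with CreER, the steadier of the pair (limma effect 3.07, SE 0.13, adjusted p 0.00367). The actin-severing protein gene Scin was higher by 3.63, the protease inhibitor gene Serpinb2 by 3.47, the laminin chain gene Lama5 by 3.14, the cadherin gene Cdh17 by 3.04, the phosphatase gene Inpp4b by 3.10, Tespa1 by 3.07 and Pcbd1 by 3.17; of these only Lama5 exceeded the floor in ST-HSC-derived colonies with mock, so the size of the others is uncertain. On the lower side, the milk protein gene Csn2 was at 9.12 and 7.23 with mock and at 9.46 and 7.55 with CreER, and the neuropeptide gene Gal at 9.88 and 8.06 with mock and at 10.50 and 9.24 with CreER. Scel was lower by 2.90-fold with mock and Il15, a cytokine gene for natural killer cells, by 2.40-fold, both to levels under the floor, as for Csn2 and Gal, and both passed in limma.

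Some mock differences were far from their CreER counterparts. By the excess of the mock over the CreER difference among genes past the floor, the furthest on the higher side were Gzmb, Tph1, Retnlg, Fcer1a, Mirt2, F2rl2, Ctse, Ch25h, Mmp9 and Mrgpra6, and on the lower side Nos2, Hspa1a, Fcnb, F13a1, Mid1, Ak4, Nrgn, Scd1, Bnip3 and Selenbp1. The long non-coding gene Mirt2 read 10.04 and 12.54 with mock and 10.84 and 11.04 with CreER, and the cathepsin gene Ctse 8.23 and 10.67 with mock and 9.20 and 9.53 with CreER. The gelatinase gene Mmp9 was higher by 0.58 with mock and differed by -1.43 with CreER. Since each group has 1 array, none of these contrasts between the pairs could be tested.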

How the data were processed

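Amplified, biotin-labelled RNA of colony-forming cells was measured on Affymetrix arrays, 1 per group, per the labels' protocols. The deposited values are log2 levels per probe set, a scale read from their range of 2.21 to 14.82. The submitters' processing notes name Affymetrix Expression Console as the tool; version, summarisation, normalization and build: not given in the sources used here. Array medians lay between 7.75 and 7.82, so the values were used as deposited. Such summaries compress differences near background, and precision is limited by having 1 array a group.

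Of 35556 probe sets, 21789 had 1 gene symbol in the platform annotation, 1621 several and 12146 none here; 21698 were found in RefSeq's gene table for GRCm38.p6, and 0 symbols changed. A gene with several probe sets (999 of 19938) took its probe set of highest mean level. The signal floor was an array's median over the probe sets carrying 1 symbol (8.07 to 8.13). The size rule needed 1 log2 unit or more between the arrays and the higher array past its floor. The limma fit (limma 3.58.1, R 4.3.3, lmFit and eBayes, 4.27 prior degrees of freedom) covered the 10411 genes that passed the floor on any array, with p-values adjusted by Benjamini-Hochberg and a threshold of 0.05. Tables were handled in Python 3.11.15. The steps were tested on simulated data. Nothing in the labels says that arrays came from separate animals or cultures.

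The comparison, the 39 lists (896 entries, 823 measured) and the naming rule were chosen with earlier results of these data known. Named genes are the 20 furthest to each side by the size rule, list members meeting it, defining markers, transcription factors and receptors, the 3 widest members of lists without a call, and the 10 to each side whose mock difference exceeds the CreER difference most; not all are described. Further list members were named after their values were seen. Alternatives were quantile, cyclic loess and median normalization, no floor or one at the 75th percentile, size thresholds of 1.5-fold and 3-fold, averaging a gene's probe sets, and for limma a trended prior, an adjusted p of 0.1 and no transduction term.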

Additional observations from a re-analysis of the deposited data

Results flagged for a closer look

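For 8 of the named genes past the size rule, the difference between LT-HSC and ST-HSC arrays had the opposite sign with CreER. With 1 array a group, none of these differences between the transductions was tested. Ch25h, which makes an oxysterol, differed by 1.92 with mock and by -0.11 with CreER. The neutrophil genes Cxcr2 and Retnlg differed by 1.79 and 1.82 with mock and by -0.12 and -0.53 with CreER. The monocyte gene F13a1 differed by -1.35 with mock and 0.26 with CreER, and the heat shock gene Hspa1a by -1.46 and 0.32. Itgax and Ms4a7 differed by 1.11 and 1.05 with mock and by -0.58 and -0.21 with CreER. Selenbp1 differed by -1.03 with mock and 0.20 with CreER.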

How the results depend on the processing

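The size rule's count of genes higher in LT-HSC-derived colonies was 278 as reported, 150 with a floor at the 75th percentile, 558 at 1.5-fold and 132 at 3-fold; the count lower was 41, and 19, 267 and 11 under those settings. Limma's count higher was 394 as reported, 257 after loess, 131 with the stricter floor, 695 at an adjusted p of 0.1 and 159 without the transduction term. Its count lower was 259, and 152 after quantile normalization, 111 after loess, 55 with the stricter floor, 706 at an adjusted p of 0.1 and 41 without the transduction term. Fewer genes are tested under the stricter floor; the cause of the other changes was not tested. The share of counted genes with the same direction on the CreER arrays was 95.3%, and between 91.27% and 97.2% over its alternatives. For the 829 list and named genes, the ones recomputed, no called difference changed direction; over these genes and 6 alternatives together, 4923 differences kept their side of the size rule, 9 gained and 42 lost it, 37 of these at the stricter floor. Of the list medians, 207 moved little and 21 moved, all when only members past a floor were taken; under the normalizations the sign turned for the lists of dendritic, B, and T and NK cells, cysteine and glutathione, and aldo-keto reductases, all with medians within 0.06 of 0. The ATF4 and amino acid transport list had between 4 and 19 members higher by the size rule, the mast and basophil list between 11 and 14, and the monocyte list between 2 and 9 lower. No paired analysis was possible because the labels give no replicate numbers; the transduction term already compares the populations within each transduction. Leaving out an array left no residual degree of freedom, so the fit then gives no test.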

Other observations

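Further metabolic lists were close to level between LT-HSC-derived and ST-HSC-derived colonies with mock, and none had a member past the size rule. Nucleotide synthesis had a median of -0.04 over 28 genes, the pentose phosphate pathway of -0.08 over 7 and haem and iron handling of -0.13 over 21. The transferrin receptor gene Tfrc, which takes up iron, read 11.41 and 10.65 on the ST-HSC and LT-HSC mock arrays and 11.36 and 11.39 on the CreER arrays. The iron exporter gene Slc40a1 differed by -0.51 with mock and -0.69 with CreER, and limma with Benjamini-Hochberg adjustment gave it an effect of -0.60 (adjusted p 0.0369). Heparin and proteoglycan synthesis, which supplies the matrix of mast cell granules, had a median of 0.07 over 23 genes, beside the mast and basophil median of 1.22. Genes of oxidant production and defence had a median of -0.09 over 18; the NADPH oxidase subunits among them had one of -0.10 over 5, and the quinone reductase gene Nqo1 differed by 0.95 with mock and 0.08 with CreER.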
